A study of Mus musculus with 6 samples.

Results

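The Sox genes followed here are 10 members of the Sox transcription factor family, Sox1, Sox2, Sox3, Sox4, Sox5, Sox6, Sox8, Sox9, Sox10 and Sox11, chosen by symbol from the 24063 gene symbols of an RNA-seq series on mouse stem-like medulloblastoma cells. All 10 were found, 9 had enough counts to be tested, and Sox10 was measured near 0. Medulloblastoma is a tumour of the cerebellum. Every library carried the genotype Math1-Cre; SmoM2, in which Cre driven by the Math1 (Atoh1) promoter switches on SmoM2, an active form of the Hedgehog signal transducer Smoothened. The 3 groups differed in their CRISPR guide: sgGal4-4, named for a yeast gene and labelled WT, and sgMiat-6 and sgMiat-96, named for the long noncoding RNA Miat and labelled as its knockdown. Each group had 2 libraries. The labels do not say whether these came from separate cultures or from how many clones, so p-values measure only the spread between these libraries, which may be technical.

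Sox proteins bind DNA through an HMG box and are sorted into subgroups by its sequence. In the developing nervous system Sox1, Sox2 and Sox3 (subgroup B1) keep cells in a progenitor state, Sox4 and Sox11 (subgroup C) act later and switch on neuronal genes, and Sox8, Sox9 and Sox10 (subgroup E) direct glial and neural crest fates. Sox5 and Sox6 (subgroup D) have no activation domain of their own, act beside other Sox proteins, and are found in both glial precursors and neurons. In mouse Hedgehog medulloblastoma, Sox2 marks a slowly cycling stem-like population.

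The rows kept for analysis, 1 per symbol, held between 18438891 and 19650274 counts per library. The targeted RNA, Miat, was counted 140 and 139 times in the control replicates and 0 times in all 4 libraries that carried a Miat guide. Among neural stem markers, Nes and Vim were at 1007 CPM or more in every library (CPM is a count relative to the library's total, adjusted by TMM), while Prom1 had 1 count in all and Fut4 had 0. Atoh1, whose promoter drives the Cre, had 0 counts in every library, as did the mature neuron genes Syt1, Stmn2 and Gabra6. Of 12 tested granule neuron progenitor and Hedgehog markers, 4 rose and 8 fell with both guides (33.1% and 33.4% of all genes). Zic1 went from 53.2 and 48.2 CPM in the control to at least 96.9 in the Miat libraries, and Gli1 from 16.8 and 15.3 to at most 2.81. The part of these markers in the Sox results was not tested. The 10 microglial markers summed to between 1.79 and 6.23 CPM and the 8 endothelial markers to between 7.03 and 14.2 CPM. The libraries also differed in the length of the transcripts that took their counts. The mean transcript length, weighted by counts, was 3575 and 3504 bp in sgGal4-4 replicates 1 and 2, 3255 and 3070 bp in sgMiat-6, and 2659 and 2835 bp in sgMiat-96. Results on Sox genes with long transcripts are therefore given with and without the trend over length. Because these are bulk samples, fewer cells of a type and less RNA per cell cannot be told apart.

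The promoters of Sox2, Sox4 and Sox8 are shown because these were the stem, neuronal and glial members with the highest level per length in the control. Sequences are from RefSeq (GRCm38.p6) and end just before the start annotated there, which for Sox2 lies upstream of the GENCODE start at 34650405. Bases inside the gene's own GENCODE exons are left out, so the Sox4 window ends just before its GENCODE start. Capitals mark the CCAAT box (CCAAT) and the GC box (GGGCGG) on either strand, which overlap nowhere in these windows.
Sox2, chr3:34649745-34649994, plus strand: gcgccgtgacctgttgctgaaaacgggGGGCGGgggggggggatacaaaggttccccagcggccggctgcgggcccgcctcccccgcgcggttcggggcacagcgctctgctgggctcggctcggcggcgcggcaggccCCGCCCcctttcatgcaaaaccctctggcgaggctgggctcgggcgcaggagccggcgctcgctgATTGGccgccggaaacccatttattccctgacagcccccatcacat
Sox4, chr13:28953714-28953949, minus strand: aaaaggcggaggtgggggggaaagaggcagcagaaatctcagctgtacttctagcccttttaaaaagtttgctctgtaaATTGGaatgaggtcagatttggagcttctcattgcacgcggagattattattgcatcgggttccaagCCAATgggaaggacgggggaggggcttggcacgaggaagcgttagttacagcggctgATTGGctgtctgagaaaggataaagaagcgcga
Sox8, chr17:25570687-25570936, minus strand: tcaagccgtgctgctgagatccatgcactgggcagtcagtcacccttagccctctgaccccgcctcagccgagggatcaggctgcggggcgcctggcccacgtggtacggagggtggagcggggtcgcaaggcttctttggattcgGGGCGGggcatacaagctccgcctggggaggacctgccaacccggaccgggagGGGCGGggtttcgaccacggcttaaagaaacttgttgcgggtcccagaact
The Sox4 window held 3 CCAAT boxes and 0 GC boxes, the Sox8 window 0 and 2, and the Sox2 window 1 and 2. The window of Sox4 before the bases inside its exon were left out held 4 CCAAT boxes. Of 32851 promoters of 250 bases, 33.8% held a CCAAT box and 32.7% a GC box. The string ACAAT, taken as the core Sox motif and found in 27.7% of promoters, was not among the letters of these 3 windows. Nor was GGGTGGT, taken as the core Gli motif and found in 3.92%. Variants of these strings were not searched. A match is a string of letters and not a binding site. Promoters were listed for 7 of the 10 members; Sox3, Sox9 and Sox10 are named only.

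The members differed in gene structure, by GENCODE M21 on GRCm38. The kept transcripts of Sox1, Sox2, Sox3, Sox4 and Sox11 have 1 exon, those of Sox8, Sox9 and Sox10 have 3, 3 and 4, and those of Sox5 and Sox6 have 15 each in genes of 953.6 and 567.9 kb. Exons of Sox5 overlap the antisense gene Sox5os1 and those of Sox1 the miRNA gene Gm25239. No member shared a stretch of 50 bases with another member, but 54.09% of the 50-base stretches of Sox4, 9.49% of those of Sox8 and under 1% of those of Sox1 and Sox5 were shared with other genes. Sox4 and Sox8 have exons that overlap a gene on the opposite strand, the lincRNA Gm26735 (no row under that symbol) and 2810468N07Rik. As strandedness of the counting is not given, such reads cannot be told apart. The 2810468N07Rik row held 42 and 49 counts in the control and between 92 and 131 in the Miat libraries, against at least 2960 for Sox8, and rose with both guides (log2 fold change 1.31 ± 0.21, adjusted p = 0.000128). Its part in the Sox8 result was not tested.

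In the control cells the order of levels was set per transcript length, as FPKM (CPM scaled by TMM, per kilobase). Sox2 was the highest member at 88.7 ± 2.66 FPKM, followed by Sox4 at 75.8 ± 5.26, Sox8 at 51.0 ± 1.39 and Sox3 at 45.2 ± 1.98 (SD, n = 2 each). Sox11 at 24.3 ± 1.39 and Sox1 at 24.1 ± 1.14 FPKM overlapped, and Sox9 lay just under them at 21.7 ± 0.431. Sox5 and Sox6 stood far lower, at 6.47 ± 0.0120 and 3.32 ± 0.139 FPKM. Apart from Sox11 and Sox1, neighbours in this order did not overlap between the 2 control libraries. This order depends on the transcript lengths implied by the deposited FPKM, which differ from GENCODE for Sox4 (2953 against 4795 bp), Sox6 (8706 against 5122 bp), Sox1 (4037 against 4832 bp) and Sox2 (2456 against 2057 bp). With the GENCODE lengths, an alternative chosen after seeing the data, Sox2 stood at 106 FPKM, and Sox8 at 51.0 came before Sox4 at 46.7 FPKM, which overlapped Sox3 at 45.2. Stem, neuronal and glial members were among the 4 highest in the control with either length.

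With sgMiat-96 the order differed. Sox3 came first at 121 ± 0.919 FPKM, ahead of Sox2 at 110 ± 9.19 and Sox8 at 88.3 ± 4.84, while Sox4 dropped to the 4th place at 27.4 ± 10.4 FPKM and overlapped Sox11 (SD, n = 2 each). With the GENCODE lengths Sox2 was ahead of Sox3, at 131.5 against 121 FPKM, and Sox4 at 16.9 FPKM lay below Sox11 at 24.0. With sgMiat-6 Sox2 and Sox3 overlapped at 93.3 ± 7.09 and 85.1 ± 4.78 FPKM, and Sox8 followed at 70.7 ± 3.54 FPKM. In that group the Sox4 libraries were 65.2 and 38.6 FPKM, both under Sox8. Sox5, Sox6 and Sox10 held the 3 lowest places in all 3 groups.

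**Figure D1:**
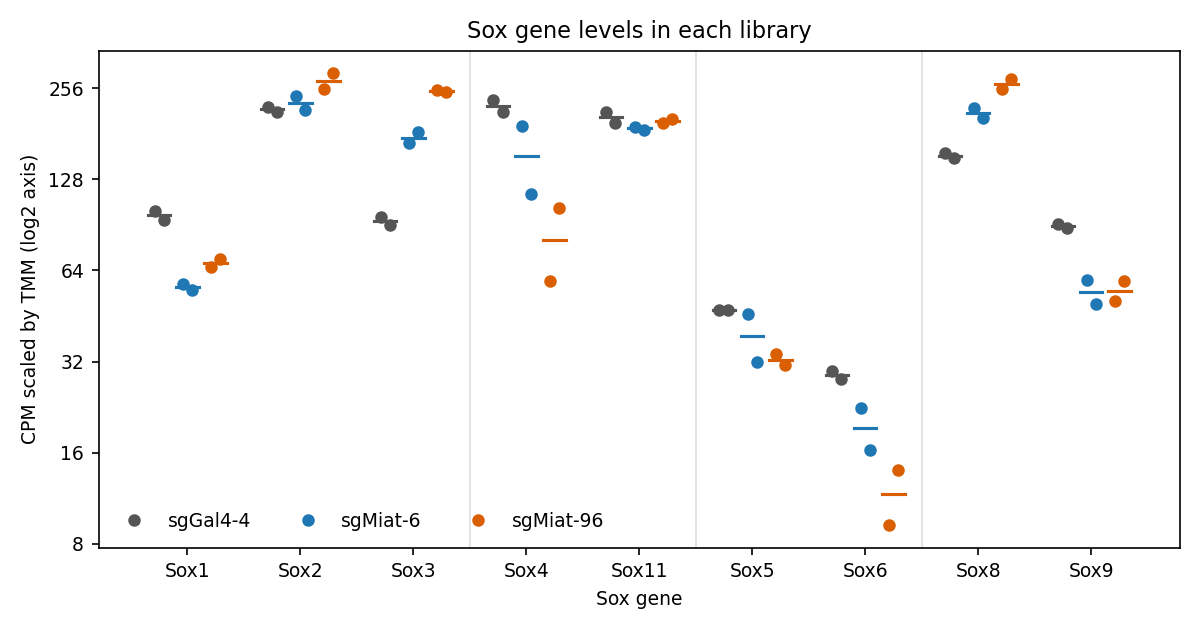
Level of the 9 tested Sox genes in each of the 6 libraries (dots; bars are group means), as CPM scaled by TMM on a log2 axis; grey lines part subgroups B1, C, D and E. Sox3 and Sox8 rise from control to sgMiat-96, Sox4 and Sox6 drop with wide gaps between replicates, and Sox2 and Sox11 stay close to the control; the direction of Sox5 and Sox11 depends on the trend over transcript length.

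The main comparison set both Miat guides against sgGal4-4. Of the 9 tested members, Sox3 and Sox8 rose and Sox1, Sox4, Sox5, Sox6 and Sox9 fell at an adjusted p under 0.05 in edgeR's quasi-likelihood test, and Sox2 and Sox11 did not pass. Among all 13220 genes tested 66.5% passed, 33.1% higher and 33.4% lower, and 7 of 9 members is close to that background. In the same 7 members the 4 Miat libraries did not overlap the control libraries, as in 67% of all genes. In 2 members all Miat libraries were above the control (34% of all genes) and in 5 all were below it (33%). The median of the 9 tested members was -0.42 on the log2 scale, beside 0.00 for all genes, and it turned to 0.13 with the trend over transcript length removed. In that setting 7 members passed, but Sox5 no longer did (adjusted p = 0.305) and Sox11 was higher (log2 fold change 0.56, adjusted p = 3.87e-05).

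Taken by guide, 5 of 9 members passed with sgMiat-6 (background 53%; 2 higher and 3 lower, against 26.9% and 26.1%) and 8 of 9 with sgMiat-96 (background 68.2%; 3 higher and 5 lower, against 34% and 34.2%). Scaled by total counts alone, the sgMiat-96 calls over all genes split into 3535 higher and 5549 lower, in place of 4495 and 4516. These comparisons share the control libraries. Sox1, Sox3, Sox6, Sox8 and Sox9 passed with either guide, Sox4, Sox5 and Sox2 with sgMiat-96, and Sox11 with neither. Taking the libraries by their ranges, 8 of 9 members did not overlap between control and sgMiat-6 (79.2% of all genes), 8 of 9 between control and sgMiat-96 (86.5%), 7 of 9 between the Miat guides (69.8%), and 5 of 9 between any of the 3 groups (50.4%).

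**Figure D2:**
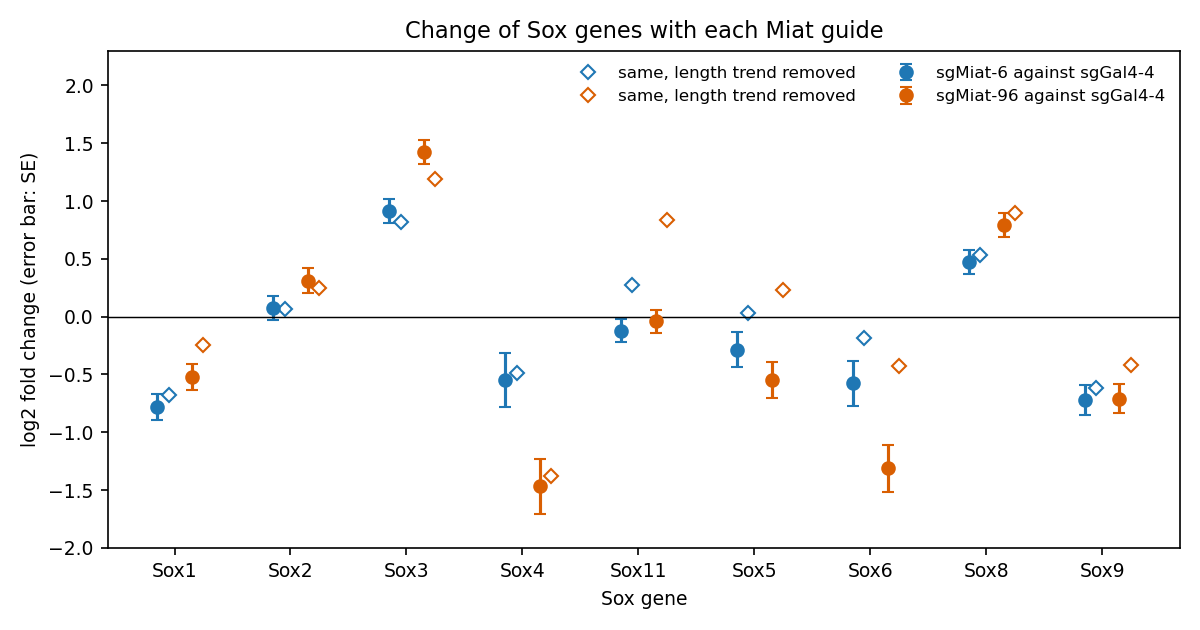
log2 fold change of each tested Sox gene with sgMiat-6 and sgMiat-96 against sgGal4-4 (filled points, error bars are SE), and the same with the trend over transcript length removed (open diamonds). Sox3 and Sox8 lie above 0 and Sox1, Sox4, Sox6 and Sox9 below 0 in both, whereas Sox5 and Sox11 change sign when the trend is removed.

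The stem members of subgroup B1 moved in different directions. Sox3 (chromosome X, 60891366 to 60893430, minus strand), an X-linked progenitor factor needed for the hypothalamus and pituitary, had 96.2 and 90.4 CPM in the control libraries, 169 and 183 with sgMiat-6, and 252 and 249 with sgMiat-96. The 3 groups did not overlap. Sox3 rose by 0.91 ± 0.10 on the log2 scale (SE) with sgMiat-6 (adjusted p = 8.97e-06) and by 1.42 ± 0.10 with sgMiat-96 (adjusted p = 1.15e-07), a 2.68-fold change. It remained called with both guides in all 15 alternative settings, with log2 values from 1.00 to 1.21. With the length trend removed the values were 0.82 with sgMiat-6 and 1.19 with sgMiat-96 (adjusted p = 2.24e-06 and 7.75e-08).

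Sox1 (chromosome 8, 12395295 to 12400126, plus strand), an early marker of neural progenitors, had 100.5 and 94.0 CPM in the control, 57.9 and 55.2 with sgMiat-6, and 65.7 and 69.7 with sgMiat-96. Both Miat groups lay below the control, and the sgMiat-6 libraries were the lowest. Sox1 fell by 0.78 ± 0.11 with sgMiat-6 (adjusted p = 6.23e-05) and by 0.52 ± 0.11 with sgMiat-96 (adjusted p = 0.000877; -0.24 with the length trend removed, adjusted p = 0.0195). Sox1 and Sox3 thus went opposite ways in the same libraries.

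Sox2 (chromosome 3, 34650405 to 34652461, plus strand), the stem cell factor, stayed the closest to its control level of the stem members. It had 222.5 and 213 CPM in the control, 241.5 and 217 with sgMiat-6, and 254.5 and 286 with sgMiat-96. The sgMiat-6 libraries overlapped the control range, and the log2 fold change of 0.07 ± 0.11 did not pass (adjusted p = 0.582; 2 SE range -0.14 to 0.29). Sox2 rose by 0.31 ± 0.11 with sgMiat-96 (adjusted p = 0.0191). That call was lost when total counts alone set the scale (adjusted p = 0.4), without either control replicate (adjusted p = 0.0894 without replicate 1 and 0.17 without replicate 2) and without sgMiat-96 replicate 2 (adjusted p = 0.116). On a TPM-like scale the log2 ratio of the Miat to the control mean was -0.24, in place of 0.20 for the level per length used here, so the direction of Sox2 depends on the scale. The row of Sox2ot, a noncoding gene around Sox2, held between 26 and 50 counts per library.

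Of 8 tested neural stem markers 3 rose and 3 fell with both guides, near the 66.5% of all genes that passed. Their summed level lay between 5466 and 5569 CPM in the control and between 6091 and 6744 CPM in the Miat libraries. In it Vim went from 1471 and 1521 CPM to between 2714 and 3308, and Fabp7 from 645 and 643 to between 1062 and 1441. Slc1a3, also an astrocyte marker, went down from 1942 and 1935 CPM to between 458 and 699, and Hes1 and Msi1 were lower too. The part of these stem markers in the Sox results was not tested.

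The neuronal members of subgroup C differed from each other. Sox4 (chromosome 13, 28948919 to 28953713, minus strand), which activates neuronal genes after cells leave the progenitor state, had 235 and 213 CPM in the control, 192.5 and 114 with sgMiat-6, and 59.3 and 102.5 with sgMiat-96. All 4 Miat libraries were below both controls, and the replicates of each Miat group stood far apart. Sox4 fell by 1.47 ± 0.24 with sgMiat-96 (adjusted p = 0.000126), a 2.77-fold change. With sgMiat-6 the log2 fold change of -0.55 ± 0.23 did not pass (adjusted p = 0.0658), but it was -0.97 without sgMiat-6 replicate 1 (adjusted p = 0.00688) and -0.61 without sgGal4-4 replicate 2 (adjusted p = 0.00884). It was -0.22 without sgMiat-6 replicate 2 (adjusted p = 0.455). Sox4 reads may be shared with the overlapping gene on the other strand, so its level is uncertain.

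Sox11 (chromosome 12, 27334264 to 27342574, minus strand), the close relative of Sox4, had 213 and 197 CPM in the control, 190.5 and 186 with sgMiat-6, and 196 and 203 with sgMiat-96. The sgMiat-96 libraries overlapped the control range, and the sgMiat-6 libraries lay just below it. With both guides the log2 fold change was -0.08 ± 0.09 (adjusted p = 0.422; 2 SE range -0.25 to 0.09). Its transcript, of 8451 bp, is among the longest of the members, and with the length trend removed the value was 0.27 with sgMiat-6 (adjusted p = 0.0158) and 0.84 with sgMiat-96 (adjusted p = 4.16e-06). The direction for Sox11 depends on that setting. With total counts alone Sox11 was called lower with both guides (-0.21, adjusted p = 0.0494) and with sgMiat-96 (-0.24, adjusted p = 0.0484).

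Of 12 neuron markers 4 could be tested, with 3 higher and 1 lower with both guides (33.1% and 33.4% of all genes). Their summed level went from between 748 and 749 CPM in the control to between 373 and 506 with sgMiat-6 and between 296 and 302 with sgMiat-96. Most of the sum was Map2, which had 745 and 746 CPM in the control and between 282 and 490 CPM in the Miat libraries. Tubb3, Neurod1 and Nefm went up from low levels. Tubb3 had 0.206 and 0.152 CPM in the control and between 5.26 and 9.16 in the Miat libraries. Neurod1 went from 1.70 and 1.72 CPM to between 4.27 and 7.30, and Nefm from 0 and 0.0507 to between 0.173 and 1.43. Dcx, a marker of migrating young neurons, had at most 6 counts in any library. The part of neuronal cells in the Sox4 result was not tested.

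The glial members of subgroup E split as well. Sox8 (chromosome 17, 25565892 to 25570686, minus strand), which overlaps in function with Sox9 and Sox10 in oligodendrocyte development, had 156 and 150 CPM in the control, 219.5 and 204.5 with sgMiat-6, and 254 and 275 with sgMiat-96. The groups did not overlap. Sox8 rose by 0.47 ± 0.10 with sgMiat-6 (adjusted p = 0.00166) and by 0.79 ± 0.10 with sgMiat-96 (adjusted p = 1.61e-05). On a TPM-like scale the log2 ratio of the Miat to the control mean was 0.20, in place of 0.64 for the level per length used here.

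Sox9 (chromosome 11, 112782224 to 112787760, plus strand), which starts the switch from neuron to glia production, had 91.1 and 88.6 CPM in the control, 59.3 and 49.7 with sgMiat-6, and 50.7 and 59.2 with sgMiat-96. The Miat groups overlapped each other and lay below the control. Sox9 fell by 0.72 ± 0.13 with sgMiat-6 (adjusted p = 0.000371) and by 0.71 ± 0.13 with sgMiat-96 (adjusted p = 0.000251). With the length trend removed these values were -0.62 and -0.42 (adjusted p = 0.000105 and 0.00153). The difference between guides was 0.01 on the log2 scale (adjusted p = 0.958; 2 SE range -0.24 to 0.27), and 0.20 with the length trend removed (adjusted p = 0.126).

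Sox10 (chromosome 15, 79154908 to 79165240, minus strand), needed for oligodendrocytes and neural crest derivatives, had 1 and 3 counts in the control libraries, 0 and 0 with sgMiat-6, and 1 and 0 with sgMiat-96. All are within the floor of 3 counts, which corresponds to between 0.149 and 0.173 CPM, so no fold is given. The oligodendrocyte genes Mag, at 0 in every library, and Mog, with at most 3 counts, were also near 0.

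Markers of glial types moved beside these genes. Of 9 tested astrocyte markers 8 fell and 1 rose (33.4% and 33.1% of all genes), and their summed level went from between 3767 and 3894 CPM in the control to between 1096 and 1209 CPM in the Miat libraries, with Gja1 at 0 throughout and Gfap at no more than 17 counts in any library. Of 7 tested oligodendrocyte lineage markers 4 rose and 2 fell, beside the same shares of all genes, and their sum went from between 2068 and 2144 CPM to between 3118 and 3264 with sgMiat-6 and between 4758 and 4857 with sgMiat-96. Nearly all of that sum was Olig1 and Olig2, transcription factors of the lineage. The part of such cells in the Sox8 and Sox9 results was not tested.

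The subgroup D members were lower with the Miat guides, but with values that depend on transcript length. Sox6 (chromosome 7, 115470872 to 116038796, minus strand), which with Sox5 holds back oligodendrocyte maturation and aids Sox9 in cartilage, had 29.8 and 28.1 CPM in the control, 22.5 and 16.3 with sgMiat-6, and 9.22 and 14.1 with sgMiat-96. No Miat library reached the control range. Sox6 fell by 1.31 ± 0.20 with sgMiat-96 (adjusted p = 7.98e-05) and by 0.58 ± 0.19 with sgMiat-6 (adjusted p = 0.0237). With the length trend removed these values were -0.42 (adjusted p = 0.0275) and -0.19 (adjusted p = 0.291). That fit used 8706 bp as the length of Sox6, against 5122 bp in GENCODE. The sgMiat-6 call was also lost without sgGal4-4 replicate 1 (adjusted p = 0.059) and without sgMiat-6 replicate 2 (log2 fold change -0.37, adjusted p = 0.153).

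Sox5 (chromosome 6, 143828425 to 144781977, minus strand) had 47.5 and 47.4 CPM in the control, 45.9 and 31.95 with sgMiat-6, and 33.9 and 31.1 with sgMiat-96. In sgMiat-6 replicate 1 it stood close to the control, while the other 3 Miat libraries stood together. Sox5 fell by 0.55 ± 0.16 with sgMiat-96 (adjusted p = 0.0073). Without sgMiat-96 replicate 2 the log2 fold change was -0.48, and the call was lost. With sgMiat-6 the log2 fold change was -0.29 ± 0.15 (adjusted p = 0.136), and -0.57 without sgMiat-6 replicate 1 (adjusted p = 0.00338). With the length trend removed the values were 0.23 and 0.033 for sgMiat-96 and sgMiat-6, and neither passed. The 3 transcript rows of Sox5 and the 6 of Sox6 held nearly equal counts in each library, so isoforms were not told apart.

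Sox4 and Sox6 followed the same order over the 6 libraries. Both were highest in sgGal4-4 replicate 1, then sgGal4-4 replicate 2, sgMiat-6 replicate 1, sgMiat-6 replicate 2, sgMiat-96 replicate 2 and sgMiat-96 replicate 1. That is also the order of the libraries by mean transcript length, from 3575 down to 2659 bp. Spred2, Cep128 and Ttc28 held this order too, but they were picked, as described below, for their likeness to Sox4 or Sox6 over these same libraries. The share of all genes in this order was not counted. In 50.4% of all genes the 3 groups did not overlap, whatever their order, which is no background for this order of libraries. Within sgMiat-6, replicate 1 exceeded replicate 2 by 0.75 on the log2 scale for Sox4, 0.46 for Sox6 and 0.52 for Sox5. Within sgMiat-96 the sign was opposite for Sox4 and Sox6, at -0.79 and -0.61. Sox3, Sox11 and Sox1 differed between replicates by no more than 0.12 in any group. With the length trend removed the Sox4 value with sgMiat-96 was -1.38 (adjusted p = 0.000246), a fit that used 2953 bp as its length.

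**Figure D3:**
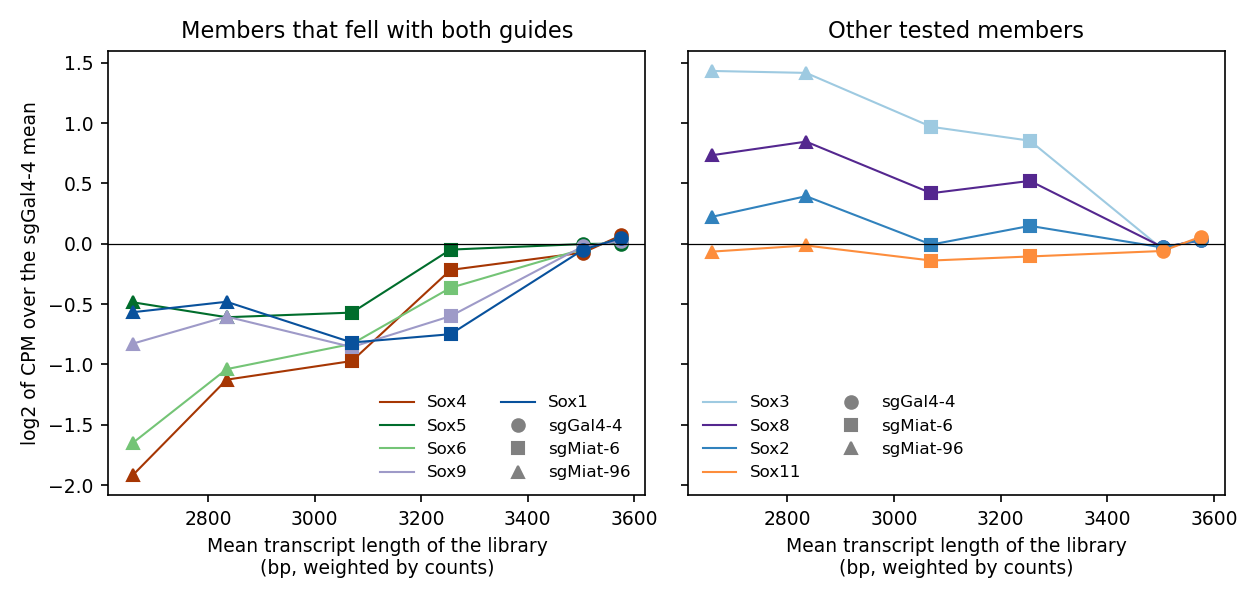
Level of each tested Sox gene in the 6 libraries, as log2 of CPM over the sgGal4-4 mean, against the mean transcript length of the library weighted by counts, in bp; marker shapes are the guide groups. Sox4 and Sox6 decline in step with mean length from 3575 to 2659 bp, while Sox1, Sox9 and Sox11 do not follow that order. Sox3 and Sox8 are higher in both Miat groups, whose mean lengths are shorter than those of the control. Sox5, in the left panel, is no longer lower when the trend over transcript length is removed.

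The last comparison set sgMiat-96 against sgMiat-6. Of 9 tested members 4 passed, Sox3 and Sox8 higher and Sox4 and Sox6 lower with sgMiat-96, against a background of 36.7% (17.8% higher and 18.8% lower). With total counts alone the calls over all genes split into 1380 higher and 3720 lower, in place of 2359 and 2491. Without sgMiat-6 replicate 1 there were 2 member calls and without sgMiat-96 replicate 1 there was 1 (Sox3). Over all genes the calls were 2253 and 1124 without those libraries, in place of 4850. The Sox3 difference of 0.51 ± 0.10 on the log2 scale (adjusted p = 0.00278) was called in all 16 alternative settings. The Sox8 difference of 0.32 ± 0.10 (adjusted p = 0.0256) was called in 8 of 16. It missed the threshold without any 1 library other than sgMiat-6 replicate 1, with a replicate block and with only the groups compared. With total counts alone it missed the threshold too (log2 difference 0.17, adjusted p = 0.219). Its value lay between 0.17 and 0.37 over the 16 settings. Sox4 differed by -0.92 ± 0.24 (adjusted p = 0.0103) and Sox6 by -0.74 ± 0.21 (adjusted p = 0.0147), and each lost its call without sgMiat-6 replicate 1 (adjusted p = 0.163 and adjusted p = 0.142) and without sgMiat-96 replicate 1 (adjusted p = 0.155 and adjusted p = 0.171). Sox4 also lost it in DESeq2 (adjusted p = 0.0857), and Sox6 with the length trend removed (adjusted p = 0.279).

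The make-up of the Sox mRNA pool was described as each gene's share of the summed level per length of the 10 members, which does not depend on library scaling but does depend on the transcript lengths. The B1 stem members made up 46.2% and 46.6% of the sum in the control libraries, 51.4% and 56.4% with sgMiat-6, and 62.4% and 59.9% with sgMiat-96. The summed C neuronal share went the other way, from 29.9% and 28.9% to 23.2% and 18.0%, and to 11.2% and 13.8%. Most of that fall was Sox4, from 22.7% and 21.8% in the control to 5.17% and 8.17% with sgMiat-96. Sox11 went from 7.20% and 7.04% to 5.98% and 5.65%. Shares were not computed with the length trend removed, a setting in which Sox11 rose with sgMiat-96 (log2 fold change 0.84). The E glial members were at 21.1% and 21.6%, then 23.1% and 23.8%, then 25.04% and 24.93%. Within B1, Sox3 went from 13.3% in each control library to 31.4% and 28.4% with sgMiat-96, while Sox2 stayed between 25.8% and 27.4% in all 6 libraries. With the GENCODE lengths the B1 share was 52.2% and 52.4% in the control and 65.0% and 63.3% with sgMiat-96, the C share 22.2% and 21.4% against 9.01% and 10.6%, and the Sox2 share between 31.0% and 32.6% in all libraries. The summed level was between 330 and 351 FPKM in the control, 338 and 379 with sgMiat-6, and 388 and 425 with sgMiat-96. Unlike the shares, this sum depends on library scaling. On the TPM-like scale the ratios of Miat to control levels were lower, and the sum was not computed there.

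**Figure D4:**
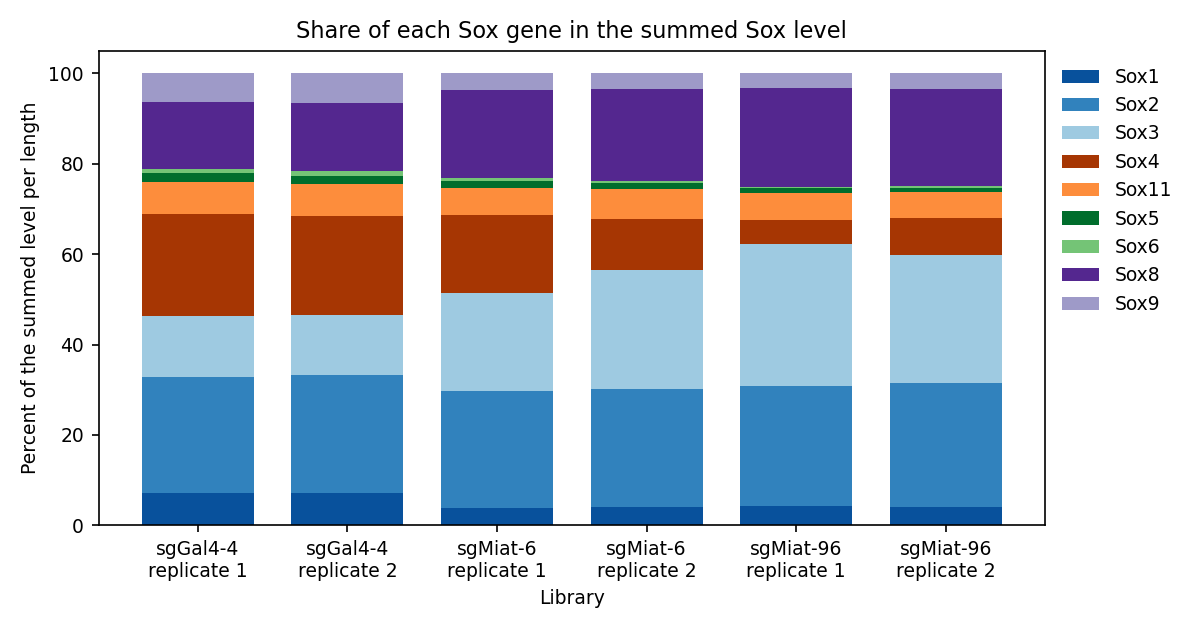
Share of each tested Sox gene in the summed level per length of the 10 members, in percent, for each library (Sox10 is too low to show), with the transcript lengths implied by the deposited FPKM. The Sox2 band stays between 25.8% and 27.4%, the Sox3 band widens from 13.3% to 31.4% and 28.4% with sgMiat-96, and the Sox4 band narrows from 22.7% and 21.8% to 5.17% and 8.17%.

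Other Sox genes were read from the same fit. Of 10 listed, 4 were tested, and 2 rose and 1 fell with both guides, where 66.5% of all genes passed. Sox13, the remaining subgroup D gene, had 40.5 and 40.4 CPM in the control and between 5.06 and 7.44 CPM in the Miat libraries, and fell by 2.66 ± 0.14 on the log2 scale (adjusted p = 4.1e-09). Sox21, a B2 gene whose protein opposes B1 proteins in the chick neural tube, had 34.9 and 30.9 CPM in the control and between 71.6 and 88.3 CPM in the Miat libraries, and rose by 1.27 ± 0.12 (adjusted p = 1.31e-06).

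Sox12, the remaining subgroup C gene, had 133 and 119.5 CPM in the control, 91.1 and 98.6 with sgMiat-6, and 123 and 132 with sgMiat-96. It fell with sgMiat-6 (log2 fold change -0.41 ± 0.11, adjusted p = 0.00633), and the value with sgMiat-96 was 0.01 ± 0.11 (adjusted p = 0.917). Sox15, a gene best known from muscle and germ cells, went from 3 and 5 counts in the control to 8 and 14 with sgMiat-6 and 28 and 30 with sgMiat-96, and rose with sgMiat-96 (adjusted p = 0.000293). Sox18, an endothelial factor, had 4 and 6 counts in the control and 0 in the 4 Miat libraries, too few to test. Sox7 had 1 count in all, and Sox14, Sox17, Sox30 and Sry had 0, which at this depth allows up to 3 counts per library.

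Genes known to work with Sox proteins or to lie downstream of them were read from 6 lists, chosen with earlier results of these data known. Of 20 tested Sox partners and regulators, 6 rose and 9 fell with both guides, and their median log2 fold change was -0.12. All counts of this kind stand beside a background of 66.5% of all genes called with both guides (33.1% higher and 33.4% lower) and a median of 0.00. The POU factor genes, whose proteins bind beside B1 Sox proteins, moved apart. Pou3f4 had 30.03 and 32.9 CPM in the control and no more than 0.459 CPM in any Miat library, a drop of 6.47 ± 0.19 (adjusted p = 2.78e-11). Pou3f1 rose by 2.00 ± 0.12 (adjusted p = 1.44e-08), from 18.5 and 15.2 CPM to between 63.5 and 71.8. Olig1, which acts with Sox10 in oligodendrocytes, rose by 1.39 ± 0.09 (adjusted p = 3.55e-08).

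Of 13 tested stem targets of B1 proteins, 5 rose and 7 fell, with a median of -0.44 (66.5% of all genes called). Those that fell included Jag1, a Notch ligand gene (log2 fold change -2.53 ± 0.13), Gli2, an effector of Hedgehog signalling (-2.21 ± 0.15), and Egfr, a growth factor receptor gene (-1.59 ± 0.12) (adjusted p = 2.49e-09, 4.79e-08 and 9.23e-08). Of 11 tested neuronal targets of C proteins, 3 rose and 5 fell, with a median of -0.08, close to the background of 66.5% called. Ncam1, a neural adhesion gene, fell by 1.18 ± 0.08 (adjusted p = 6.58e-08). Tubb3, the neuronal tubulin gene that Sox4 and Sox11 activate, had 4 and 3 counts in the control and rose to between 5.26 and 9.16 CPM in the Miat libraries (adjusted p = 6.59e-08). Tead2, also a Sox4 and Sox11 target, rose by 1.24 ± 0.10 (adjusted p = 1.66e-07), from 154 and 151 CPM to between 296 and 410.

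Of 14 tested astroglial targets of Sox9, 2 rose and 9 fell, with a median of -1.09, beside 0.00 for all genes and a background of 33.4% lower. Fgfr3, a growth factor receptor gene, had 461 and 443 CPM in the control and between 28.5 and 43.1 in the Miat libraries, and fell by 3.71 ± 0.09 (adjusted p = 4.16e-12). Glul, which makes glutamine synthetase, fell by 2.08 ± 0.09, and the glutamate transporter gene Slc1a3 fell by 1.83 ± 0.09 (adjusted p = 8.16e-10 and 1.92e-09). Some of these genes are also astrocyte markers, whose fall was known when the list was made.

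Of 11 tested oligodendrocyte and crest targets of E proteins, 4 rose and 4 fell, with a median of 0.08 and again close to the background of 66.5%. Cnp, a myelin enzyme gene, fell by 3.69 ± 0.16 and Cspg4, which encodes the proteoglycan NG2, fell by 1.78 ± 0.11 (adjusted p = 9.82e-10 and 2.97e-08). Pdgfra, the receptor gene of oligodendrocyte precursors, had 1 count in each control library and between 69 and 175 counts in the Miat libraries (adjusted p = 4.27e-08). Of 8 tested cartilage targets of Sox5, Sox6 and Sox9, 3 rose and 1 fell, with a median of -0.02 and a share called below the background of 66.5%. Beside Fgfr3, which is on this list too, the collagen genes Col9a1 and Col2a1, the latter with 3 and 0 counts in the control, rose to at most 4.27 and 1.46 CPM (adjusted p = 1.04e-05 and 0.00102).

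For the 3 members with the widest range of group means, the most alike genes were found among 10022 genes as the smallest Euclidean distance of centred log2 CPM over the 6 libraries. Nearest to Sox4 were Spred2 (distance 0.23), a regulator of Ras signalling, and Vgll4 (0.24), a Tead cofactor gene. Nearest to Sox3 were Gnb1 (0.05), a G protein subunit gene, and Pgk1 (0.09), a glycolytic enzyme gene. Nearest to Sox6 were Cep128 (0.11), a centriole gene, and Ttc28 (0.12). Spred2, for example, had 87.9 and 85.3 CPM in the control, 65.8 and 46.3 with sgMiat-6, and 22.9 and 35.8 with sgMiat-96, the same order of libraries as Sox4. These 6 libraries form 3 groups, so likeness here is a description.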

How the data were processed

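Sequencing reads of 6 libraries, made from 1 µg of total RNA each per the labels, were aligned by the authors. The submitters' processing notes name STAR, GRCm38 and mm10; not given in the sources used here were STAR's version, the read counter, strandedness and annotation. The authors deposited for each RefSeq transcript its count beside FPKM and TPM values, per the file headers. Deposited FPKM gave transcript lengths and zeros, and deposited TPM went unused. The second sgMiat-96 replicate lists 1 count for 11223 rows whose FPKM is 0, and these were set to 0. For each of 24063 symbols the row with the highest total count was kept.

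Counts were tested with edgeR 4.0.16 (limma 3.58.1, R 4.3.3): filterByExpr, TMM, 3 groups in 1 model with 3 residual degrees of freedom, prior count 0.125, quasi-likelihood tests and Benjamini-Hochberg adjustment over 13220 genes. The SE is the log2 fold change over the square root of F. On simulated counts with known changes for both guides against sgGal4-4 (12994 genes), 58.2% of 1.5-fold, 89.6% of 2-fold and 100% of 4-fold changes were recovered, and 16 of 181 calls were false. The simulation changed only 67, 67 and 66 well-counted genes by these folds, in random directions. In the data 66.5% of genes were called, so these rates need not hold there. Alternatives were DESeq2 1.42.0, other scaling, filters, rows and samples, a replicate block, GENCODE transcript lengths and a loess offset over transcript length (span 0.3). Members, lists and tests were chosen with earlier results of these data known. All members were named, with up to 3 called genes per list by smallest adjusted p, all other Sox genes with counts, and 2 most alike genes (mean of at least 5 CPM) for each of 3 members. Floors cover counting error only. The HMG boxes were not compared here. Tables and plots used Python 3.11.15, pandas 2.3.3 and matplotlib 3.10.9.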

Additional observations from a re-analysis of the deposited data

Results flagged for a closer look

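For 4 members the effects of the 2 Miat guides against the shared control differed, by the test of sgMiat-96 against sgMiat-6 in edgeR. The difference was 0.51 on the log2 scale for Sox3 (adjusted p = 0.00278) and 0.32 for Sox8 (adjusted p = 0.0256), both higher with sgMiat-96. It was -0.92 for Sox4 (adjusted p = 0.0103) and -0.735 for Sox6 (adjusted p = 0.0147), both lower with sgMiat-96. In each of the 4 genes the libraries of the 2 guides did not overlap, as was so for 69.8% of all genes tested. The Sox3 difference was called in all 16 alternative settings and the Sox8 difference in 8 of 16. The Sox4 and Sox6 differences lost their calls without sgMiat-6 replicate 1 and without sgMiat-96 replicate 1.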

How the results depend on the processing

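With both guides, 6 members (Sox1, Sox3, Sox4, Sox6, Sox8 and Sox9) were called in the same direction in all 15 alternatives. With the trend over transcript length removed, Sox6 passed narrowly with both guides (log2 fold change -0.30, adjusted p = 0.0493). In that setting values reversed for Sox11 (0.56 with both guides, 0.27 with sgMiat-6, 0.84 with sgMiat-96) and Sox5 (0.13, 0.033 and 0.23, and 0.20 between guides). The cause of these reversals was not tested. With total counts alone, the values between guides reversed for Sox11 (-0.067) and Sox9 (-0.14), and the median of all genes with both guides was -0.126. Leaving out 1 library at a time gave ranges that crossed 0 for Sox2 with sgMiat-6 (-0.0023 to 0.14), Sox11 with sgMiat-96 (-0.10 to 0.019), and Sox5 (-0.51 to 0.022) and Sox9 (-0.13 to 0.14) between guides. Between guides it gave 1124 to 5740 called genes, in place of 4850, and 1 to 4 called members, in place of 4; a lone library was assumed to vary like the other groups. A TPM-like scale divides the same counts per length by each library's sum over all genes, so it shifts all members by a similar amount. On it the log2 ratio of Miat to control levels was -1.08 for Sox1, -0.24 for Sox2, 0.74 for Sox3 and -0.51 for Sox11. It was -0.81 for Sox5, -1.27 for Sox6, 0.20 for Sox8 and -1.14 for Sox9. These 8 values moved by more than the spread between replicates, and that of Sox4, not listed, did not. Why the library sums differed was not tested. The replicate numbers did not pair the libraries (correlations of replicate differences 0.0368, -0.128 and -0.281); with a replicate block 8341 genes were called with both guides in place of 8794, and the same number of members, 7, while Sox8 lost its call between guides (adjusted p = 0.0631). Levels with GENCODE transcript lengths, an alternative chosen after seeing the data, are given with the order of levels. Sox10 is limited by depth.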
